A study of Homo sapiens with 8 samples.

Results

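The genes of DNA replication and S-phase entry were followed here as 46 named genes of the 26830 gene symbols in a table of human RNA levels, taken by symbol from all 8 libraries. The study asked how METTL16, an RNA methyltransferase, affects translation across the genome. Its cells were labelled HEK293T, an embryonic kidney line, and were a single clone carrying the nuclease Cas9. In all, 3 guide RNAs against METTL16 went into separate cultures (sgMETTL16-1, sgMETTL16-2 and sgMETTL16-3), and 1 culture with a negative control guide (sgNS) was the comparison. All 4 cultures shared the clone, lentiviral infection and selection with blasticidin (10 µg/ml) and with puromycin (2 µg/ml, at least 1 week). All were also given cycloheximide, which halts ribosomes, at 100 µg/ml for 5 min. From each came 1 library of input RNA and 1 of ribosome footprints, the RNA fragments of 17 to 34 nt that ribosomes shield. Levels are in TPM, each library's transcripts shared out after scaling by length, so levels of different genes may be set side by side but read depth is not known from them. Nothing in the labels gives a repeat culture of any guide, so the spread among the 3 sgMETTL16 cultures is a spread among guides as well as among cultures.

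DNA replication starts when the origin recognition complex, CDC6 and CDT1 load rings of MCM2 to MCM7 onto DNA in G1 phase. In S phase CDC45 and the GINS complex turn each ring into the active helicase, primase and the polymerases copy both strands around the PCNA clamp, and FEN1 and LIG1 finish the lagging strand. Many of these genes are switched on by E2F transcription factors once cyclin E and its kinase relieve them of the retinoblastoma protein, and the p53 target CDKN1A can block that step.

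Some facts of the libraries touch every result. METTL16 input mRNA was at 4.72, 5.25 and 4.16 TPM in sgMETTL16 cells, against 5.31 TPM in sgNS, which lay above all 3. The same held for 5.37% of all genes with a mean input of 1 TPM or more. METTL16 footprints were listed at 0 in all 3 sgMETTL16 cultures and at 19.8 TPM in sgNS. Of the same input-expressed genes, 47.9%, 55.6% and 35.3% had footprints above 0 in the sgMETTL16 cultures and 37.7% in sgNS. A listed 0 was thus common in every footprint library. Marker genes lay closer to a hepatocyte profile than to the labelled cell type. Each of 12 hepatocyte markers reached 1 TPM in every input, while of 10 HEK293 markers 5 did so and 5 were under 1 TPM in every input. NEFL, NEFM and VIM were listed at 0 in all inputs, but VIM footprints were at 85.2, 78.7 and 43.3 TPM in sgMETTL16 and at 188 TPM in sgNS, so an input value of 0 does not show that the gene was silent. The summed hepatocyte markers were at 6172 to 9785 TPM in the sgMETTL16 inputs and at 5549 TPM in the sgNS input. The summed 10 HEK293 markers were at 30.5 to 46.6 TPM in the sgMETTL16 inputs and at 29.2 TPM in the sgNS input. Of 5 proliferation markers outside the 46 genes (MKI67, TOP2A, CCNB1, CDK1 and BUB1), the summed input level was 10.9 to 35.9 TPM in sgMETTL16 and 24.0 TPM in sgNS. Of the 5 blood and 4 fibroblast markers, 4 and 3 were under 1 TPM in all inputs, and the blood marker LYZ was at 194 to 620 TPM in sgMETTL16 and at 216 TPM in sgNS. Whether the mix or state of the cells contributed to the results below was not tested, and in bulk RNA fewer cells of a type and less RNA per cell cannot be told apart.

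In the input RNA, the replication genes lay low relative to other transcripts in sgMETTL16 cells, but no single gene passed the test. Of the 46 genes, 42 had a mean input of 1 TPM or more and were tested with limma on log2(TPM + 1) with each library centred on its median gene. None had an adjusted p under 0.05, where 2.83% of all 10967 tested genes did (1.25% with a lower level), and 14 of the 42 had an unadjusted p under 0.05, against 11.2% of all genes. The other tools tried were limma settings, which called from 0 to 4 of the members. The median log2 change of the 42 was -0.54, against -0.06 over all tested genes, and 40 of the 42 lay below the median gene. On TPM as deposited the median gene stood at 0.46 and the members at -0.01, since centring moves all genes of a library by the same amount. As deposited, members thus lay near their sgNS share of the library while most other genes had a larger share. The count of members with an unadjusted limma p under 0.05 also depended on the settings. It was 0 on TPM as deposited, 5 on TPM rescaled over protein-coding genes, 8 with no filter and 16 with no intensity trend.

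**Figure D1:**
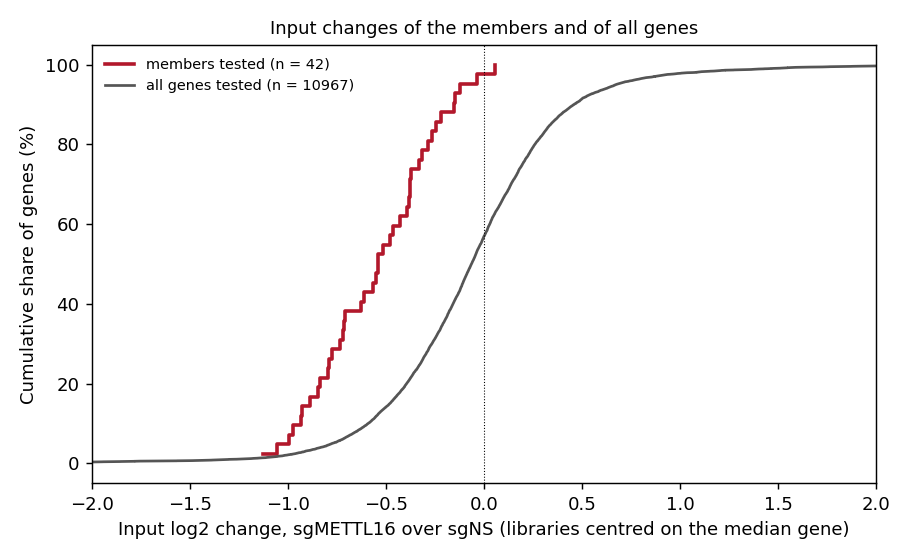
Cumulative share of genes (vertical axis, %) by input log2 change of sgMETTL16 over sgNS (horizontal axis, log2, libraries centred on the median gene) for the 42 tested members (red steps) and all 10967 tested genes (grey line). The members' curve lies to the left, with a median of -0.54 against -0.06.

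The direction of single members was also counted, first on TPM as deposited. All 3 sgMETTL16 inputs were above sgNS for 1 of the 42 members, POLD2, against 64.1% of all genes with a mean of 1 TPM or more. All 3 were below sgNS for 7 members, against 5.37% of all genes: CDT1, MCM5, MCM7, LIG1, UHRF1, CHAF1A and E2F2. For the other 34 members the sgNS value lay within the range of the 3 sgMETTL16 values. In centred libraries, 34 of 42 members were below sgNS in all 3 cultures, against 34.2% of all genes, and none was above it in all 3, against 23.4%. The 3 cultures are set against a single sgNS library in each of these counts, so an unusual value there moves all 3 alike.

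The 3 cultures did not move evenly. The input of sgMETTL16-3 was the lowest of the 3 sgMETTL16 inputs for 42 of 42 members as deposited, against 82.5% of all genes. Summed over all 46 genes, input TPM was 579, 538 and 348 in sgMETTL16-1, sgMETTL16-2 and sgMETTL16-3 (488 ± 123, SD, n = 3), against 518 in sgNS. The sgNS sum thus lay inside the range of the sgMETTL16 cultures. Protein-coding genes held 25.4%, 26.3% and 20.1% of input TPM in sgMETTL16-1, sgMETTL16-2 and sgMETTL16-3, against 20.3% in sgNS. Sums of deposited TPM carry that difference between libraries as well. After centring, the members' median log2 difference from sgNS was -0.33 in sgMETTL16-1, -0.67 in sgMETTL16-2 and -0.67 in sgMETTL16-3, while all genes stood at -0.08, -0.13 and -0.03. Without sgMETTL16-3, 4 members passed the limma test (CDT1, CHAF1A, MCM7 and UHRF1, adjusted p from 0.00403 to 0.0247), where 5.96% of all 11148 tested genes did, and without sgMETTL16-1 or sgMETTL16-2 none did.

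**Figure D2:**
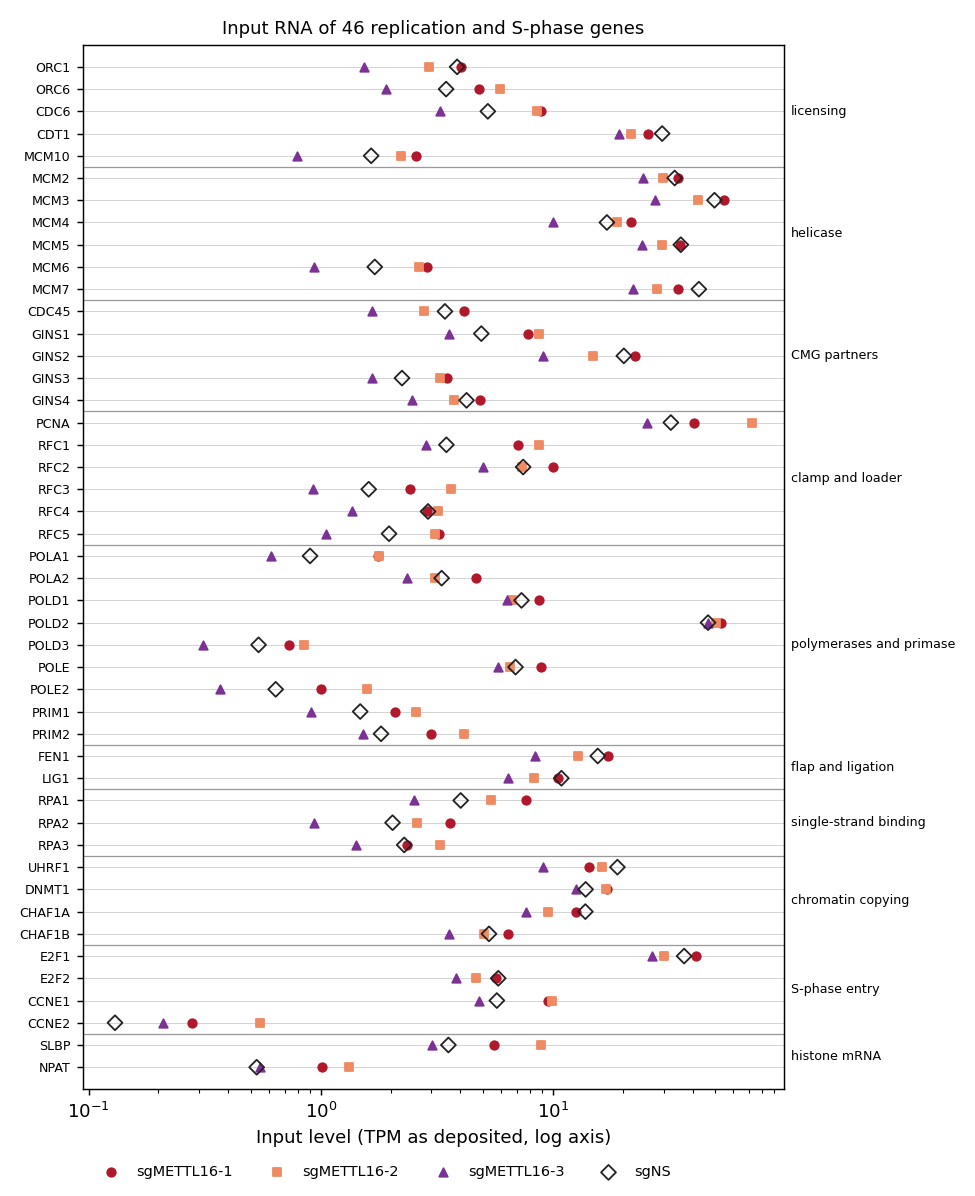
Input level of each of the 46 genes (rows, grouped by role) in TPM as deposited on a log axis, with a filled symbol for each sgMETTL16 culture and an open diamond for sgNS. The triangles of sgMETTL16-3 are the lowest of the sgMETTL16 symbols throughout, and CDT1, MCM5, MCM7, LIG1, UHRF1, CHAF1A and E2F2 have all 3 sgMETTL16 symbols left of the diamond.

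The genes with the smallest p values came from several roles, and promoters are shown for the first 4 of them that carry an E2F site, since E2F control is what links these roles in textbook accounts. An E2F site was taken as TTTCCCGC, TTTCGCGC, TTTGCCGC or TTTGGCGC on either strand, and the reverse forms read GCGGGAAA, GCGCGAAA, GCGGCAAA and GCGCCAAA on the gene's strand. RefSeq promoters of GRCh38.p14, 250 bases before to 50 bases after the gene start, matched 39 of the 46 genes by symbol. Of these, 20 held at least 1 site (51.3%), against 5.82% of 8230 protein-coding genes with a mean input of 1 TPM or more and 4.44% of all 15843 protein-coding promoters. The sequences below run 5′ to 3′ on the gene's strand with sites in capitals: MCM7 at chr7:100101348-100101647 (minus strand), UHRF1 at chr19:4909251-4909550 (plus strand), GINS2 at chr16:85688905-85689204 (minus strand) and CDT1 at chr16:88803539-88803838 (plus strand). The UHRF1 window lies inside the annotated gene span of 4903080 to 4962154.
MCM7: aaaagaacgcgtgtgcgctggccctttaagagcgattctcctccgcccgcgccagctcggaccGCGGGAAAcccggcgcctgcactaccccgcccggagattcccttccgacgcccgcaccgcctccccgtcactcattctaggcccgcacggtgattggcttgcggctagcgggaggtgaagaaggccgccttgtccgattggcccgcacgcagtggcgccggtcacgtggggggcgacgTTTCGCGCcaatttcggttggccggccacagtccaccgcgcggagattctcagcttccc
UHRF1: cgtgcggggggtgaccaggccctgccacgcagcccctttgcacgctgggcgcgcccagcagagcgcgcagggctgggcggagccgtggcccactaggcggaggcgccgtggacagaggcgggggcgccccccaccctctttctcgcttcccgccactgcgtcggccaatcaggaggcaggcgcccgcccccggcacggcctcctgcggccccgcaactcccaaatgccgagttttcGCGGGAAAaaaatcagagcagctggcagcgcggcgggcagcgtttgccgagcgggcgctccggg
GINS2: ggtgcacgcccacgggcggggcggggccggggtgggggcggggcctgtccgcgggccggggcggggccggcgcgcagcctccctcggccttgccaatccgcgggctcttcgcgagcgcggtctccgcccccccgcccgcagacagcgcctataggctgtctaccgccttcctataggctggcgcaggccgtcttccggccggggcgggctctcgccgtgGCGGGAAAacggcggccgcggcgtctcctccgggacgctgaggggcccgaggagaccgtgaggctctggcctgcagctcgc
CDT1: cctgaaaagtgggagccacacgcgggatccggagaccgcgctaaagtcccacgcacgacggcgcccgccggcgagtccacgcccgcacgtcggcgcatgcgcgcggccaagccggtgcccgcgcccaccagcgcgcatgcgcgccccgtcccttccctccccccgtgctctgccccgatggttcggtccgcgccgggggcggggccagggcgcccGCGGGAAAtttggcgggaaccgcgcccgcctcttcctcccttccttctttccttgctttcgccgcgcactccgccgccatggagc

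The MCM7 promoter held 2 sites and the other 3 promoters held 1 each. Over the 20 promoters there were 27 sites, of which 19, in 17 genes, began between 60 bases before and 10 bases after the gene start. In MCM2 and MCM6 sites on both strands overlapped in a run of 12 bases, shown with 6 bases on each side because the repeat is plain to see. The MCM2 run began 2 bases after the gene start, and the MCM6 runs began 152 and 90 bases before it.
MCM2: accactTTTCGCGCGAAAcctggt
MCM6, upstream copy: tttgcaTTTGGCGCGAAAtccctt
MCM6, downstream copy: gtcaggTTTGGCGCGAAAtctcca

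A match to these letters is not a measured binding site, and other forms of the motif were not searched. Having a site did not separate the members from each other in the input. The median log2 change was -0.54 for the 19 tested members with a site and -0.45 for the 18 without one. Among other protein-coding genes it was -0.13 for the 460 with a site and -0.05 for the 7738 without one.

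**Figure D3:**
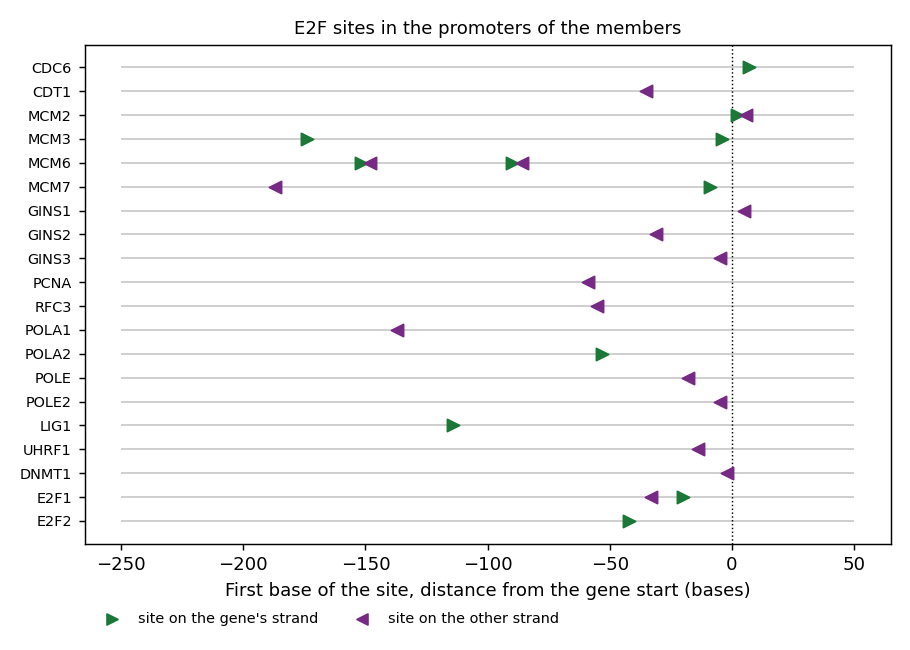
Position of each E2F site (horizontal axis, bases from the gene start at 0, window from 250 bases before to 50 after) in the 20 member promoters that hold one (rows), with right-pointing green symbols on the gene's strand and left-pointing purple symbols on the other. Of the 27 sites, 19 lie between -60 and 10, and MCM6 has overlapping pairs at 2 places.

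Licensing genes, most of which load the helicase before S phase, were all below 0 on average in centred libraries. CDT1, the loading factor that brings the MCM ring to origins, was at 25.8, 21.8 and 19.2 TPM in sgMETTL16 (22.3 ± 3.29, SD, n = 3), against 29.6 TPM in sgNS. Its groups did not overlap, and its centred log2 change was -0.93 (SE 0.39, limma adjusted p = 0.251). ORC1, the largest subunit of the origin recognition complex, was at 4.04, 2.93 and 1.54 TPM in sgMETTL16, against 3.87 TPM in sgNS (log2 change -0.93, SE 0.34, limma adjusted p = 0.138). The sgNS value lay within the sgMETTL16 range as deposited. CDC6, the ATPase that joins the origin complex, was at -0.29, ORC6 at -0.39 and MCM10, an initiation factor, at -0.48, and these 3 were above 0 on TPM as deposited (0.24, 0.13 and 0.05).

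The 6 subunits of the MCM2 to MCM7 helicase were each below sgNS in all 3 centred cultures, with a median log2 change of -0.76. MCM7 had the smallest p of all members: 34.7, 28.0 and 22.1 TPM in sgMETTL16 (28.3 ± 6.33, SD, n = 3), against 42.6 TPM in sgNS. The groups did not overlap, and the centred change was -1.13 (SE 0.39, limma adjusted p = 0.110). MCM7 passed with genes of a mean of 5 TPM or more, with quantile normalization, with no intensity trend and without sgMETTL16-3. MCM3, the most abundant subunit in the input, was at 54.8, 42.3 and 27.5 TPM in sgMETTL16, against 49.7 TPM in sgNS, and its change was -0.84. MCM5 (-0.80), MCM2 (-0.72), MCM4 (-0.61) and MCM6 (-0.38) followed, of which MCM6 turned positive on TPM as deposited (0.15).

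Partners of the active helicase were lower too in centred libraries. GINS2 was at 22.5, 15.0 and 9.03 TPM in sgMETTL16, against 20.2 TPM in sgNS (log2 change -0.98, SE 0.38, limma adjusted p = 0.197). CDC45, which completes the helicase, was at 4.16, 2.79 and 1.67 TPM in sgMETTL16, against 3.43 TPM in sgNS (log2 change -0.77, SE 0.34, limma adjusted p = 0.295). In both, only sgMETTL16-1 was above sgNS as deposited. GINS4 (-0.72), GINS3 (-0.33) and GINS1 (-0.22) completed the group, whose 5 members were all below sgNS in every centred culture, and GINS3 and GINS1 turned positive on TPM as deposited (0.20 and 0.31).

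Genes of the sliding clamp and its loader had a median log2 change of -0.32, and 3 of the 6 were below sgNS in all 3 centred cultures. PCNA, the clamp that holds polymerases on DNA and a known p53 target as well, was at 40.7, 72.0 and 25.5 TPM in sgMETTL16 (46.1 ± 23.7, SD, n = 3), against 32.3 TPM in sgNS. The sgMETTL16-2 culture was the highest and sgMETTL16-3 the lowest, on either side of sgNS. The centred change was -0.15 (SE 0.40, limma adjusted p = 0.967) and turned positive on TPM as deposited (0.38). RFC4, a loader subunit, was at 2.87, 3.19 and 1.37 TPM in sgMETTL16, against 2.90 TPM in sgNS (log2 change -0.74, SE 0.33, limma adjusted p = 0.313). RFC1, the large loader subunit, was the only tested member with a centred change above 0 (0.05), and it was below 0 without sgMETTL16-1 or without sgMETTL16-2. RFC2, RFC5 and RFC3 were at -0.57, -0.38 and -0.26, and RFC5 and RFC3 were above 0 on TPM as deposited (0.15 and 0.26).

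The 7 tested polymerase and primase genes were all below 0 in centred libraries, with a median log2 change of -0.43. POLD2, a small subunit of DNA polymerase delta, was the most abundant of them, with 53.2, 50.5 and 46.8 TPM in sgMETTL16, against 46.6 TPM in sgNS. Its groups did not overlap as deposited, with sgMETTL16 above, and the centred change was -0.43, so its direction depends on the scaling (0.10 on TPM as deposited). The catalytic subunits POLD1 of polymerase delta and POLE of polymerase epsilon were at -0.55 and -0.52 (POLE at 0.013 on TPM as deposited), and POLA2 of the alpha complex was at -0.54. POLA1, the catalytic subunit of polymerase alpha, was at -0.25, and the primase subunits PRIM1 and PRIM2 were at -0.37 and -0.12. These 3 turned positive on TPM as deposited (0.28, 0.16 and 0.40). POLD3 and POLE2 had mean inputs under 1 TPM, at 0.31 to 0.85 TPM and 0.37 to 1.58 TPM over the 4 inputs, and were not tested.

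Flap processing and ligation were represented by FEN1, the nuclease that trims Okazaki fragments, and LIG1, the ligase that joins them. LIG1 was at 10.5, 8.33 and 6.42 TPM in sgMETTL16, against 10.9 TPM in sgNS, with no overlap (log2 change -0.89, SE 0.37, limma adjusted p = 0.259). FEN1 was at 17.3, 12.8 and 8.37 TPM in sgMETTL16, against 15.6 TPM in sgNS, which lay within the sgMETTL16 values (log2 change -0.85, SE 0.38, limma adjusted p = 0.315). For RPA, the complex that coats single-stranded DNA, RPA1 was at 7.64, 5.43 and 2.53 TPM in sgMETTL16, against 4.01 TPM in sgNS. The changes of RPA1, RPA2 and RPA3 were -0.31, -0.46 and -0.54, and those of RPA1 and RPA2 were positive on TPM as deposited (0.21 and 0.06).

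Genes that copy chromatin marks and nucleosomes at the fork included the second smallest p. UHRF1, which reads hemimethylated DNA and recruits DNMT1, was at 14.3, 16.4 and 9.04 TPM in sgMETTL16 (13.2 ± 3.78, SD, n = 3), against 19.0 TPM in sgNS. The groups did not overlap (log2 change -1.05, SE 0.38, limma adjusted p = 0.131). CHAF1A, the large subunit of the histone chaperone CAF-1, was at 12.6, 9.54 and 7.64 TPM in sgMETTL16, against 13.8 TPM in sgNS, again with no overlap (log2 change -0.99, SE 0.38, limma adjusted p = 0.170). Its partner CHAF1B was at -0.63. DNMT1, the maintenance DNA methyltransferase, was at 17.1, 17.0 and 12.6 TPM in sgMETTL16, against 13.9 TPM in sgNS, and its change was -0.38, or 0.15 on TPM as deposited.

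The 3 tested regulators of S-phase entry were all below 0 in centred libraries, with a median log2 change of -0.71. E2F1, an activator of these genes and itself one of its targets, was at 41.6, 30.1 and 26.9 TPM in sgMETTL16, against 36.8 TPM in sgNS (log2 change -0.71, SE 0.39, limma adjusted p = 0.517). E2F2 was at -0.79 with no overlap as deposited. CCNE1, which encodes cyclin E1, was at -0.15, or 0.37 on TPM as deposited. CCNE2 was at 0.13 to 0.55 TPM over the inputs and NPAT, a histone gene activator that cyclin E and its kinase phosphorylate, at 0.53 to 1.32 TPM. Both were under a mean of 1 TPM, so they were not tested. SLBP, which binds the stem-loop of histone mRNA, was at 5.59, 8.89 and 3.01 TPM in sgMETTL16, against 3.55 TPM in sgNS. Its change was -0.04 (SE 0.36, limma adjusted p = 0.994), and 0.49 on TPM as deposited.

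**Figure D4:**
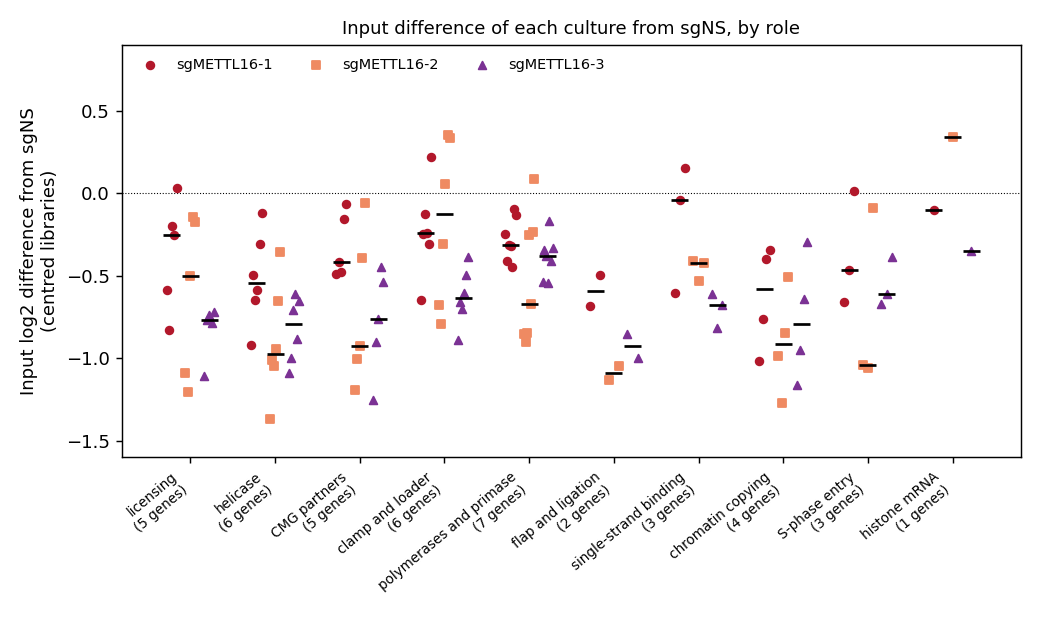
Input log2 difference of each sgMETTL16 culture from sgNS (vertical axis, centred libraries) for the 42 tested members by role (horizontal axis); a symbol is a gene in a culture and a short line the median of that role in that culture. The helicase, its partners, flap and ligation, and chromatin copying lie below 0 in all 3 cultures. Some clamp and loader genes, PRIM2 and SLBP reach above 0 in sgMETTL16-2, and RFC1, RPA1, CDC6 and CCNE1 do so in sgMETTL16-1.

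Members at higher input levels had the lower changes. The median log2 change was -0.82 for the 14 members with a mean input of 10 TPM or more and -0.43 for the 28 below it, while all genes stood at -0.11 and -0.04 in the same classes. Across the 42 members the change and the mean level had a Spearman rho of -0.40, and across 9917 protein-coding genes -0.10. These points come from the same 4 libraries, and adding 1 TPM before the log draws the changes of low genes toward 0.

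Other genes of the pathway came from 6 lists, with 10, 11, 14, 8, 23 and 11 tested genes, and 2 of these passed. That share is near the 2.83% of all tested genes that passed. In centred libraries 57.0% of all tested genes were below 0, against which the counts of each list are to be read. ASF1B, a histone chaperone that hands new histones to CAF-1, was at 11.7, 7.74 and 6.16 TPM in sgMETTL16, against 14.1 TPM in sgNS. It fell by 1.23 (SE 0.37, limma adjusted p = 0.0376), and in the list of 11 tested histone mRNA and histone supply factors it alone passed. Of the 11, 5 were above 0 and 6 below (median -0.21), with NASP at -0.76 and LSM11 at -0.35. As deposited, all 3 sgMETTL16 inputs were above sgNS for 64.1% of all tested genes. Among 23 tested regulators of cyclin-dependent kinases and RB, CDKN1A was at 156, 307 and 325 TPM in sgMETTL16. It was at 59.8 TPM in sgNS, with no overlap. It rose by 1.52 (SE 0.43, limma adjusted p = 0.0162), and CDC25A and CDKN2C were at -0.85 and -0.76. The median of this list was -0.23, with 6 above 0 and 17 below.

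No gene passed in the other lists. All 14 tested further fork factors were below 0, with a median of -0.50, TIMELESS at -1.15 and CHTF18 at -0.93 (limma adjusted p = 0.0604 and 0.0798). The 8 checkpoint and repair genes were below 0, with a median of -0.21 and RAD54L at -1.002. Of 10 nucleotide supply genes 3 were above 0 and 7 below (median -0.16), with RRM2B, a p53-responsive ribonucleotide reductase subunit, at 0.98 and thymidine kinase TK1 at -1.08. Of 11 further licensing and firing genes 3 were above and 8 below (median -0.06), with TICRR at -0.87 and RECQL4 at -0.55. On TPM as deposited, where the median gene stands at 0.46 in place of -0.06, every one of these values is higher by the same amount, which puts LSM11 and the medians of all 6 lists above 0.

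Footprints of the 46 genes were patchy. Members above 0 numbered 30, 32 and 23 in the footprints of sgMETTL16-1, sgMETTL16-2 and sgMETTL16-3, against 29 in sgNS. In the same libraries 47.9%, 55.6% and 35.3% of the 10967 input-expressed genes were above 0, against 37.7% in sgNS. Of the members 15 were above 0 in all 4 libraries and 2, POLE2 and LIG1, in none. The lowest member value above 0 was 4.89 to 5.21 TPM in the sgMETTL16 footprints and 10.4 TPM in sgNS. Protein-coding genes held 26.8%, 28.2% and 11.9% of footprint TPM in sgMETTL16-1, sgMETTL16-2 and sgMETTL16-3, against 26.9% in sgNS. A listed 0 does not show that a gene was untranslated.

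PCNA had the highest footprint level of the 46 genes in every library. Its footprints were at 419, 360.0 and 235 TPM in sgMETTL16 (338 ± 93.9, SD, n = 3), against 467 TPM in sgNS, and the scaled log2 change was 0.04 (SE 0.75, limma adjusted p = 0.994, genes above 0 in all 4 libraries). The median gene was taken over 1809 genes above 0 in all 8 libraries with a mean input of 1 TPM or more. Its footprint to input ratio was 1.55, 1.38 and 1.54 in sgMETTL16, against 3.51 in sgNS. TPM is relative within a library, and the lowest member footprint above 0 was higher in sgNS. The gap between these ratios therefore does not show a loss of translation. The ratio of PCNA was 6.63, 3.63 and 5.97 times that of the median gene in sgMETTL16 and 4.13 times in sgNS, which lay within the sgMETTL16 range.

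**Figure D5:**
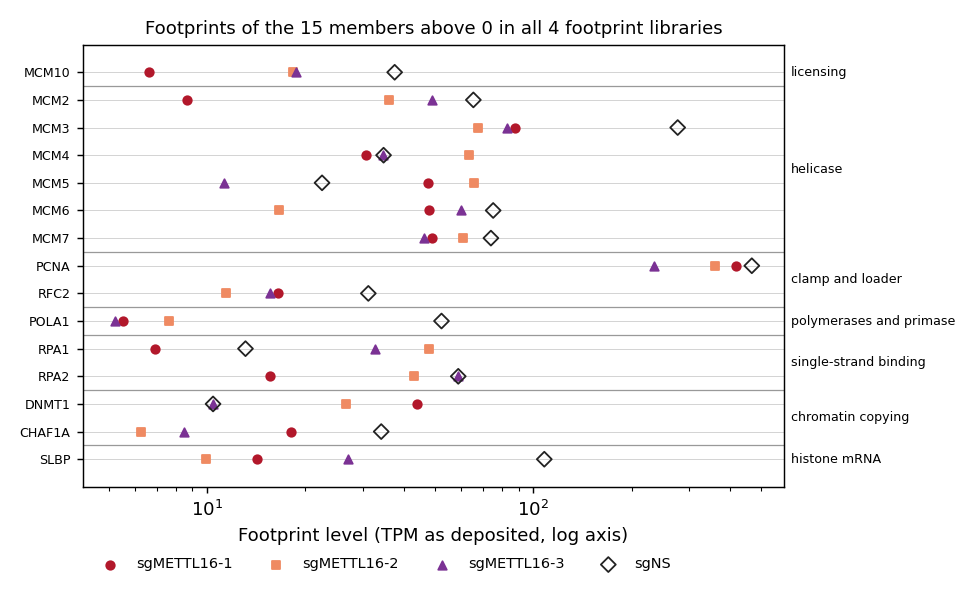
Footprint level (horizontal axis, TPM as deposited, log axis) of the 15 members above 0 in all 4 footprint libraries (rows, by role), with a filled symbol for each sgMETTL16 culture and an open diamond for sgNS. PCNA lies furthest right, and for 11 of the 15 genes all 3 sgMETTL16 symbols lie left of sgNS.

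Among the 15 members with footprints in all libraries, 11 had all 3 sgMETTL16 values below sgNS as deposited, against 44% of the 1870 genes of that kind. With libraries scaled to the median ratio of those 1870 genes, 9 of the 15 lay below 0, with a median log2 change of -0.48 against -0.04 over all 1870. No gene passed in that fit with limma, where 88 genes had an unadjusted p under 0.05, 2 of them members. POLA1 footprints were at 5.52, 7.66 and 5.21 TPM in sgMETTL16, against 52.3 TPM in sgNS (log2 change -2.39, SE 0.87, limma adjusted p = 0.927). SLBP footprints were at 14.3, 9.88 and 26.9 TPM in sgMETTL16, against 108 TPM in sgNS (log2 change -2.16, SE 0.90, limma adjusted p = 0.944). In both genes the sgNS value stood clear of all 3 sgMETTL16 values, but at these levels the number of fragments behind each value is not known. MCM5, MCM10 and RFC2 shared a scaled log2 difference of sgMETTL16-3 from sgNS of 0.06. Outside the 15, RFC1, CCNE1 and E2F1, each listed at 0 in the sgMETTL16-1 footprints, also stood at 0.06. Such repeats can arise where values rest on few fragments, which was not tested.

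Including genes at 0, 9297 genes with a mean footprint of 1 TPM or more were tested, 6.54% passed, and 1 of the 44 tested members did. That member was PRIM1, the catalytic primase subunit, listed at 0 in all 3 sgMETTL16 footprints and at 79.1 TPM in sgNS (limma adjusted p = 0.0329). No fold is given against values of 0. Of the 608 genes that passed, 543 were listed at 0 in all 3 sgMETTL16 libraries and 64 in sgNS, where values of 0 have no spread between cultures. PRIM1 did not pass in any fit that left out a culture or centred libraries on the median gene. UHRF1 was the reverse case, listed at 0 in the sgNS footprints and at 27.9, 9.68 and 19.8 TPM in sgMETTL16 (limma adjusted p = 0.248).

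Translation efficiency, the footprint to input ratio, was compared in 1 model of the 8 libraries, by the interaction term between guide and library kind. None of the 41 tested members passed with limma, where 0.737% of 8002 genes did, and 2 members had an unadjusted p under 0.05. They were PRIM1 (limma adjusted p = 0.0514) and UHRF1 (limma adjusted p = 0.0762), each at 0 on a side in the footprints. The members' median was 0.03, against 0.71 over all genes tested, and 23 of the 41 lay below the median gene. Among the 15 members above 0 in all footprint libraries, the median was 0.03, against -0.04 over 1816 genes, and 0% of those genes passed.

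The 6 MCM genes, whose proteins form the helicase ring, held different shares of input RNA and of footprints. MCM6 made up 1.56%, 1.75% and 0.860% of the summed MCM2 to MCM7 input TPM in sgMETTL16, against 0.949% in sgNS. In the footprints its share was 17.6%, 5.32% and 21.2% in sgMETTL16, against 13.7% in sgNS. MCM6 input was at 2.87, 2.64 and 0.94 TPM in sgMETTL16, against 1.71 TPM in sgNS, where MCM3 was at 49.7 TPM. MCM6 footprints were at 47.7, 16.5 and 60.1 TPM in sgMETTL16, against 75.3 TPM in sgNS. The footprint to input ratio of MCM6 was 10.7, 4.55 and 41.4 times that of the median gene in sgMETTL16 and 12.5 times in sgNS, while MCM7 lay at 0.907, 1.58 and 1.36 times in sgMETTL16 and 0.496 times in sgNS. RPA2 showed ratios of 2.79, 12.0 and 40.5 times the median gene in sgMETTL16 and 8.21 times in sgNS. RPA2 input was at 3.59, 2.61 and 0.94 TPM in sgMETTL16, against 2.04 TPM in sgNS. All 4 footprint libraries placed MCM6 and RPA2 above the median gene. The lowest member footprint above 0 was 4.89 to 5.21 TPM in sgMETTL16 and 10.4 TPM in sgNS. RPA2 footprints were at 15.5, 43.1 and 58.7 TPM in sgMETTL16, against 58.8 TPM in sgNS. Both genes thus lay above that lowest value in every library. Their inputs were low and the number of fragments behind each value is not known, so the ratios alone do not show high translation efficiency. The pattern of MCM6 and RPA2 was picked after the values were seen and no test was made of it.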

How the data were processed

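Input RNA and ribosome footprints of 4 cultures were sequenced as single-end reads of 51 bases, per the labels' protocols. The deposited values are TPM from RSEM 1.2.31 after alignment with STAR to GRCh38, per the submitters' processing notes. TPM keeps no depth, so depth is unknown and no counting intervals were computed. The 46 genes, their roles, the pathway and marker lists and the tests were chosen with earlier results of these data known.

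Fits on log2(TPM + 1) used limma 3.58.1 (R 4.3.3) with an intensity trend and Benjamini-Hochberg adjustment over all tested genes (threshold 0.05, mean TPM of 1 or more), checked on simulated data. The added 1 TPM makes changes of low genes look smaller. Input libraries were centred on the median tested gene. Footprint TPM was multiplied by a library factor, 0.890, 0.906 and 1.54 for sgMETTL16-1 to sgMETTL16-3 and 0.733 for sgNS, from 1870 genes above 0 in all 4. The spread of sgNS, with 1 culture, was taken to equal that of sgMETTL16, and the input variance came from the trend alone.

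All 46 genes were placed by role. Full statistics are given for members that passed in any comparison and for the 10 with the smallest input p, library values also for the most abundant gene of a role, and for each pathway list the genes that passed and up to 2 more. A result that this rule would name is not reported here. Input and footprint libraries with the same guide come from the same culture by the labels. Their deviations correlated at 0.0696, 0.0718 and 0.0894 across 1816 genes. Gene types and places came from RefSeq GRCh38.p14, where 23987 symbols matched and 1395 matched by an older name. Alternatives covered pseudocounts, filters, scaling, the trend, the culture as a block and leaving out each culture.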

Additional observations from a re-analysis of the deposited data

How the results depend on the processing

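The members' position below the median gene in the input was -0.48 as centred (as deposited it is the same by construction), -0.52 with quantile normalization, -0.58 over protein-coding genes and -0.15 with no filter. The median change itself was -0.54, and -0.014 on TPM as deposited and -0.25 on TPM rescaled over protein-coding genes. Input calls over all genes numbered 310, against 23 as deposited and 532 with quantile normalization, and 110 to 664 without 1 culture (110 without sgMETTL16-1, 664 without sgMETTL16-3). The lower share of calls was 44.2% as centred, 4.35% as deposited, 36.7% with quantile normalization, 17.9% over protein-coding genes and 58.9% without sgMETTL16-3. Members called in the input were 0, but 2 of 25 with a mean of 5 TPM or more (6.09% of all genes there), 1 with quantile normalization (4.85%), 1 with no intensity trend (3.52%), and 0 to 4 without 1 culture (4 of 43 without sgMETTL16-3, where 5.96% of all genes passed).

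Footprint calls numbered 608 with 1 member, and 0 with 0 members when genes had to be above 0 in all libraries, when libraries were centred on the median gene, and without any 1 culture (0 and 0 in each). Translation efficiency calls numbered 59, with 0 under the replicate block (culture as a term), 0 for genes above 0 in all footprint libraries, 695 with a pseudocount of 0.1 (2 members, PRIM1 and UHRF1), 14 on TPM as deposited, 7 with a pseudocount of 10, and 0 without any 1 culture. The block left the count of members called at 0.

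Input changes that turned sign on TPM as deposited were those of CCNE1 (0.37), CDC6 (0.24), DNMT1 (0.15), GINS1 (0.31), GINS3 (0.20), MCM10 (0.050), MCM6 (0.15), ORC6 (0.13), PCNA (0.38), POLA1 (0.28), POLD2 (0.10), POLE (0.013), PRIM1 (0.16), PRIM2 (0.40), RFC3 (0.26), RFC5 (0.15), RPA1 (0.21), RPA2 (0.065) and SLBP (0.49). Over protein-coding genes they were CCNE1 (0.19), CDC6 (0.030), GINS1 (0.11), GINS3 (0.024), PCNA (0.15), POLA1 (0.21), PRIM2 (0.30), RFC3 (0.10), RPA1 (0.0076) and SLBP (0.34). Quantile normalization turned PCNA (0.0031), no filter turned PRIM2 (0.015) and SLBP (0.10), and a mean of 5 TPM or more turned SLBP (0.011). Leaving out a culture gave RFC1 -0.081 to 0.27, PCNA -0.40 to 0.022 and SLBP -0.22 to 0.12. The causes were not tested. Only 1 sgNS culture was measured, no counts were used here, and the lone control enters every comparison.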
